A study of Mus musculus with 6 samples.

Results

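The insulin-like growth factor (IGF) family was examined here through its ligands, receptors and binding proteins: Igf1, Igf2, Igf1r, Igf2r and Igfbp2 to Igfbp7. The genes were chosen by family name, with their levels and fold changes between the groups of these same libraries already known. Of the 10 genes, 9 were measured among 27482 gene symbols, and Igfbp3 was not analysed here. Because the choice was made with this comparison in view, the values of the family describe these libraries and serve as no independent support. RNA-seq was done on 6 libraries labelled as mouse heart. They comprised 3 libraries labelled AAV9-hFNDC4, from mice in which FNDC4 was overexpressed with an AAV9 vector, and 3 labelled AAV9-CTRL, from mice that had received control AAV9. AAV9, a serotype of adeno-associated virus, is used to carry genes into the heart, and FNDC4 is a secreted protein with a fibronectin type III domain. All mice, males by the series title, had cardiac ischemia/reperfusion (I/R), in which blood flow to the heart is stopped and restored, and hearts were taken 24 h afterwards. Strain, age, vector dose and the promoter that drove the transgene are stated in no source used here.

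IGF1 and IGF2 are small secreted growth factors. Both activate IGF1R, a tyrosine kinase receptor close in structure to the insulin receptor, which signals through IRS proteins, PI3-kinase and AKT to growth and survival. IGF2R has no kinase; it carries IGF2 to lysosomes for breakdown and also sorts enzymes tagged with mannose 6-phosphate. The IGF binding proteins hold IGFs outside cells, extend their lifetime and limit or aid their access to IGF1R. In the heart, IGF1 signalling is known for its part in physiological growth of the muscle and in the survival of its cells.

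Total counts were 34419687 to 35149915 in AAV9-hFNDC4 libraries and 32975817 to 36074046 in AAV9-CTRL libraries. Genes with at least 1 count numbered 18717 to 18863 in AAV9-hFNDC4 libraries, against 20431 to 20870 in AAV9-CTRL libraries. Levels are given as CPM, counts scaled to library size (after TMM normalisation), and values after ± are the SD over 3 libraries. The labels do not say whether each library is a separate animal, so the p-values cover only the variation among these 6 libraries, part of which may be technical. Most defining markers of heart muscle were nearly absent: 1 of 8 cardiomyocyte markers (Tnnt2, cardiac troponin T) reached 1 CPM in at least 3 libraries, and Pln had no counts. The summed cardiomyocyte markers came to 38.6 to 39.8 CPM in AAV9-hFNDC4 libraries, against 51.2 to 55.0 CPM in AAV9-CTRL libraries. Fibroblast markers were carried by Col1a1, Col1a2, Col3a1 and Pdgfra (4 of 8 markers at 1 CPM or more in at least 3 libraries), while Dcn, Lum, Tcf21 and Postn lay near 0. Their sum was 2615 to 3173 CPM in AAV9-hFNDC4 libraries, against 1784 to 2227 CPM in AAV9-CTRL libraries. Of the other marker lists, 2 of 7 endothelial, 2 of 9 mural, 3 of 8 macrophage, 0 of 3 neutrophil and 0 of 4 hepatocyte markers reached that level, and Emcn and C1qb had no counts. The endothelial sum was 1.995 to 3.55 CPM in AAV9-hFNDC4 libraries, against 2.996 to 5.59 CPM in AAV9-CTRL libraries. The neutrophil sum was 0 in AAV9-hFNDC4 libraries, against 0 to 0.359 CPM in AAV9-CTRL libraries, and the hepatocyte sum was 0.0272 to 0.0801 CPM in AAV9-hFNDC4 libraries, against 0.382 to 1.01 CPM in AAV9-CTRL libraries. The mural sum, made up mainly of Pdgfrb and Cspg4, was 531 to 595 CPM in AAV9-hFNDC4 libraries, against 298 to 360 CPM in AAV9-CTRL libraries. Other mural markers went the other way. Notch3 averaged 0.191 CPM in AAV9-hFNDC4 libraries and 1.14 CPM in AAV9-CTRL libraries, and Tagln 0.163 and 0.575 CPM. At under 1 CPM in every library, Myh11 and Cnn1 were also lower without overlap, while Rgs5, Abcc9 and Acta2 overlapped. The macrophage sum, mainly Cd68 and with Itgam at 0 counts in AAV9-hFNDC4 libraries, was 11.6 to 14.0 CPM in AAV9-hFNDC4 libraries, against 29.0 to 33.7 CPM in AAV9-CTRL libraries. The tissue label therefore went against the markers, and no value below is assigned to heart muscle. The part of these marker shifts in the results on IGF genes was not tested, and in bulk RNA fewer cells of a type and less RNA per cell cannot be told apart.

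Among the 8 genes that passed the low-count filter, the widest contrasts were found for Igfbp5 and Igfbp2, which lie tail to tail on chromosome 1 with 5458 bases between their ends, and the receptor Igf2r was the more abundant of the receptor genes that rose. The promoter windows of these 3 genes are shown because they stand before the transcripts whose levels differ most in opposite directions and before the abundant receptor. The sequences are those of RefSeq on GRCm38.p6, from 250 bases before to 50 bases after the annotated start, written 5′ to 3′ on the gene's strand. All 10 family genes had such a window. Capitals mark the E-box CANNTG in Igfbp5 and the GC box GGGCGG, sought on both strands, in Igfbp2 and Igf2r.

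Igfbp5 (chr1:72874816-72875115, minus strand): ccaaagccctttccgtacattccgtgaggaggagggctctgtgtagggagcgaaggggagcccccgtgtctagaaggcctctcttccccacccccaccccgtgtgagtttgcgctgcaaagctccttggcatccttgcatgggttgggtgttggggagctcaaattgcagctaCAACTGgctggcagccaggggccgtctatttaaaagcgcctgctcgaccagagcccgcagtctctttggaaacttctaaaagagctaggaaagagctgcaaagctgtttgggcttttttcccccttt
Igfbp2, the first of 2 windows (chr1:72824230-72824529, plus strand): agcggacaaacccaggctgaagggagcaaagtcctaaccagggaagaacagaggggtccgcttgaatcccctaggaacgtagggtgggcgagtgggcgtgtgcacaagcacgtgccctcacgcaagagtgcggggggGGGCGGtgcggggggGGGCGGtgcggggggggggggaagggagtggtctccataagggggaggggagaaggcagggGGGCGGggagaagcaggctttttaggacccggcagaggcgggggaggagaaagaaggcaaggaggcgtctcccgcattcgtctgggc
Igf2r (chr17:12769657-12769956, minus strand): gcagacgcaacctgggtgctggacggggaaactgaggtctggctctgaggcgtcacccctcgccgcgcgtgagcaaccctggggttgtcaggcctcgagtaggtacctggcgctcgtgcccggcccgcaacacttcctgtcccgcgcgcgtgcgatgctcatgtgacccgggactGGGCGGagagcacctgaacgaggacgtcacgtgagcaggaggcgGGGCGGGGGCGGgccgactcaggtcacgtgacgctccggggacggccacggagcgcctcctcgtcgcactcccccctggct

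The Igfbp5 window held 1 E-box, a motif found in 72.3% of 32851 RefSeq windows of the same length, and no GC box. The printed windows of Igfbp2 and Igf2r held 3 GC boxes each, a motif found at least once in 35.7% of windows. Other family windows also held it: Igfbp7 had 4, Igf1r 2, and Igf2 had 1 in window 3 and 2 in window 4. The Igfbp2 window not printed held 0, as did the windows of Igf1, Igfbp3, Igfbp4 and Igfbp6. In Igf2r, 2 of the GC boxes adjoin each other just before the start. The E-box CACGTG occurred once in the Igfbp2 window and at 2 places in the Igf2r window. By its spelling, this E-box always contains the hypoxia response core ACGTG on both strands. That core was found in 19.6% of windows. None of the 10 genes' windows held the FOXO core TGTTTAC (3.65% of windows) or the spaced STAT5 palindrome TTCNNNGAA (8.30% of windows). G and C made up 56.3% of the Igfbp5 window, 67.0% of the Igfbp2 window and 70.7% of the Igf2r window, against a median of 52.7% over all windows. These are matches of letters in short windows, not binding sites, and binding was not measured.

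The family split in AAV9-hFNDC4 libraries relative to AAV9-CTRL libraries. The receptor genes Igf1r and Igf2r and the binding protein gene Igfbp5 were higher, the binding protein genes Igfbp2, Igfbp6 and Igfbp7 were lower, and Igf1 and Igfbp4 did not pass the test. Igf2 lay under the low-count filter. Of 8 tested members, 3 were higher, against 22.1% of all 14663 genes tested, and 3 were lower, against 25.0% (edgeR quasi-likelihood test, Benjamini-Hochberg adjusted p under 0.05 over all genes). Groups without overlap were seen for 7 of the 8, against 56.6% of all genes tested. Igfbp2, counted among the lower genes and those without overlap, passed the low-count filter through AAV9-CTRL libraries alone, which fixed its direction. The median log2 fold change was 0.19 over the 8 members and 0.01 over all genes tested. Since this comparison was in view when the family was chosen, nothing is read from these counts. Higher and lower below always describe AAV9-hFNDC4 libraries relative to AAV9-CTRL libraries.

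**Figure D1:**
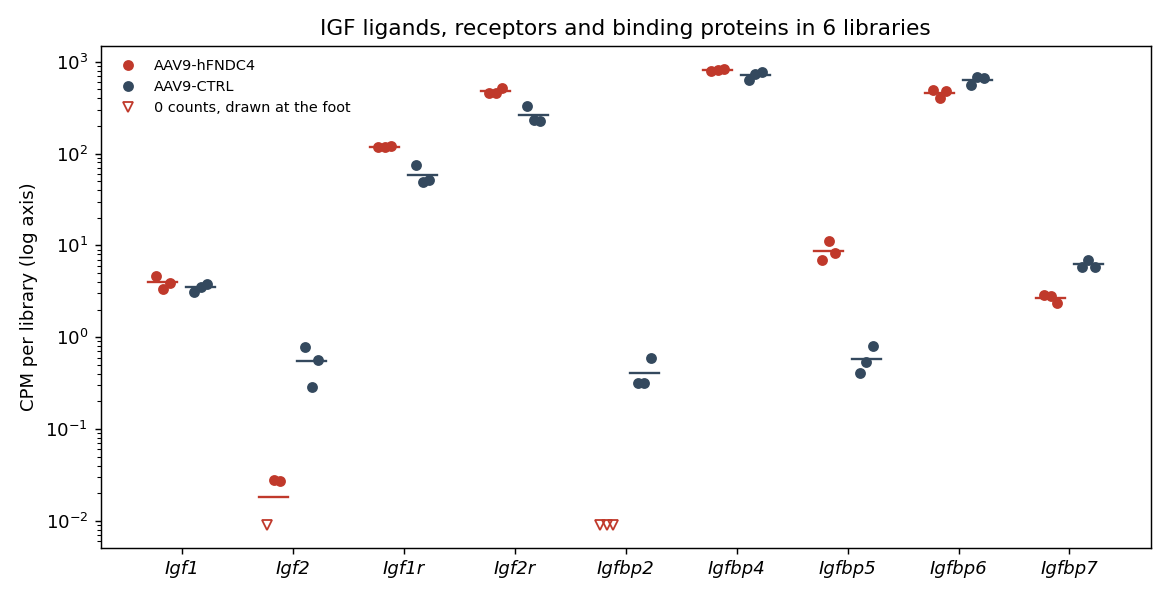
CPM of 9 IGF family genes (x axis) on a log y axis, 1 point per library, with a bar at the mean of each group. AAV9-hFNDC4 libraries are drawn left of AAV9-CTRL libraries, and open triangles mark libraries with 0 counts. The Igfbp5 points lie at 6.86 to 11.1 CPM in AAV9-hFNDC4 libraries, above all AAV9-CTRL points at 0.405 to 0.808 CPM.

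Among the ligands, Igf1 (chromosome 10, 87858265 to 87937042, GRCm38), the growth factor that growth hormone induces, was present at a low level in all libraries. It had 172, 122 and 143 counts in AAV9-hFNDC4 libraries, against 108, 110 and 128 counts in AAV9-CTRL libraries. On the CPM scale these were 4.59, 3.38 and 3.88 CPM in AAV9-hFNDC4 libraries, against 3.12, 3.51 and 3.83 CPM in AAV9-CTRL libraries, and the groups overlapped. The log2 fold change of 0.18 (SE 0.23) did not pass (edgeR quasi-likelihood test, Benjamini-Hochberg adjusted p = 0.553). Its sign turned to -0.32 (SE 0.25) with a correction for transcript length and to -0.10 with a correction for GC content, so no direction is given for Igf1. Igf1os, on the opposite strand, had 9, 0 and 0 counts in AAV9-hFNDC4 libraries, against 1, 0 and 1 counts in AAV9-CTRL libraries, and shared no exon base with Igf1.

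Igf2 (chromosome 7, 142650766 to 142666816), the fetal growth factor expressed from the paternal allele in most tissues, was near the limit of detection. It had 0, 1 and 1 counts in AAV9-hFNDC4 libraries, against 27, 9 and 19 counts in AAV9-CTRL libraries. Every AAV9-CTRL library thus lay above every AAV9-hFNDC4 library, though at under 1 CPM. The ratio of AAV9-CTRL over AAV9-hFNDC4 was 30.5 with an exact 95% binomial interval from 8.06 to 258, which covers counting error only. Igf2 did not pass the low-count filter and has no adjusted p in the main test. With all genes kept in the edgeR quasi-likelihood test, Igf2 was lower at a Benjamini-Hochberg adjusted p of 0.00019. That setting also took the adjusted p of Igf1r from 0.000286 to 9.87e-15 at a similar fold change. The p for Igf2 is therefore not comparable with those of the main test. The part of the smaller number of genes detected in AAV9-hFNDC4 libraries in this result was not tested. Of its exon bases, 70.4% are shared with Gm49394 on the same strand or Igf2os on the other, so reads could have been assigned elsewhere.

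Igf1r (chromosome 7, 67952827 to 68233668) encodes the kinase receptor through which both ligands signal. It stood at 117, 119 and 120.4 CPM in AAV9-hFNDC4 libraries, against 75.6, 49.3 and 51.4 CPM in AAV9-CTRL libraries. The AAV9-hFNDC4 libraries lay close together and all above the AAV9-CTRL libraries, among which replicate 1 was the highest. Igf1r was 2.02-fold higher, a log2 fold change of 1.02 (SE 0.15), with a Benjamini-Hochberg adjusted p of 0.000286 (edgeR quasi-likelihood test). Its log2 fold change was 1.27 without AAV9-CTRL replicate 1, 0.91 without AAV9-CTRL replicate 2 and 0.93 without AAV9-CTRL replicate 3. With the length correction it was 0.49 (SE 0.10) and kept its call.

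Igf2r (chromosome 17, 12682406 to 12769664) encodes the receptor that clears IGF2 and sorts lysosomal enzymes. It stood at 453, 461 and 521 CPM in AAV9-hFNDC4 libraries, against 326, 234 and 228 CPM in AAV9-CTRL libraries. As with Igf1r, the groups were apart and AAV9-CTRL replicate 1 was the highest of its group. Igf2r was 1.82-fold higher, with 0.86 on the log2 scale and an SE of 0.14 (edgeR quasi-likelihood test, Benjamini-Hochberg adjusted p = 0.000502). The length correction gave 0.43 (SE 0.10) and kept the call. Airn, the RNA transcribed across part of Igf2r from the opposite strand and known in mouse for silencing the paternal Igf2r allele, was singled out after its values were seen. It stood at 4.35, 4.71 and 6.63 CPM in AAV9-hFNDC4 libraries, against 3.15, 1.69 and 2.12 CPM in AAV9-CTRL libraries, and was higher by a log2 fold change of 1.17 (SE 0.29), with a Benjamini-Hochberg adjusted p of 0.00621 by the edgeR quasi-likelihood test. No source used here states a strand setting, so reads of unspliced Airn and of Igf2r where they overlap could not be told apart.

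Counts of the receptor genes were also set against each other, and against the insulin receptor gene Insr, within each library. Igf2r had 3.87, 3.86 and 4.32 counts per count of Igf1r in AAV9-hFNDC4 libraries, against 4.32, 4.75 and 4.43 in AAV9-CTRL libraries, and the ranges met at 4.32. Insr, whose product pairs with IGF1R in hybrid receptors, stood at 120.0, 120.0 and 133 CPM in AAV9-hFNDC4 libraries, against 51.6, 44.5 and 38.4 CPM in AAV9-CTRL libraries. Its log2 fold change was 1.47 (SE 0.12; edgeR quasi-likelihood test, Benjamini-Hochberg adjusted p = 1.36e-05), and by 1.01 with the length correction. The count ratio of Igf1r over Insr was 0.975, 0.995 and 0.905 in AAV9-hFNDC4 libraries, against 1.47, 1.11 and 1.34 in AAV9-CTRL libraries. All AAV9-hFNDC4 libraries lay below all AAV9-CTRL libraries in this ratio, which does not depend on the scaling of libraries. These ratios are descriptions without a test.

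**Figure D2:**
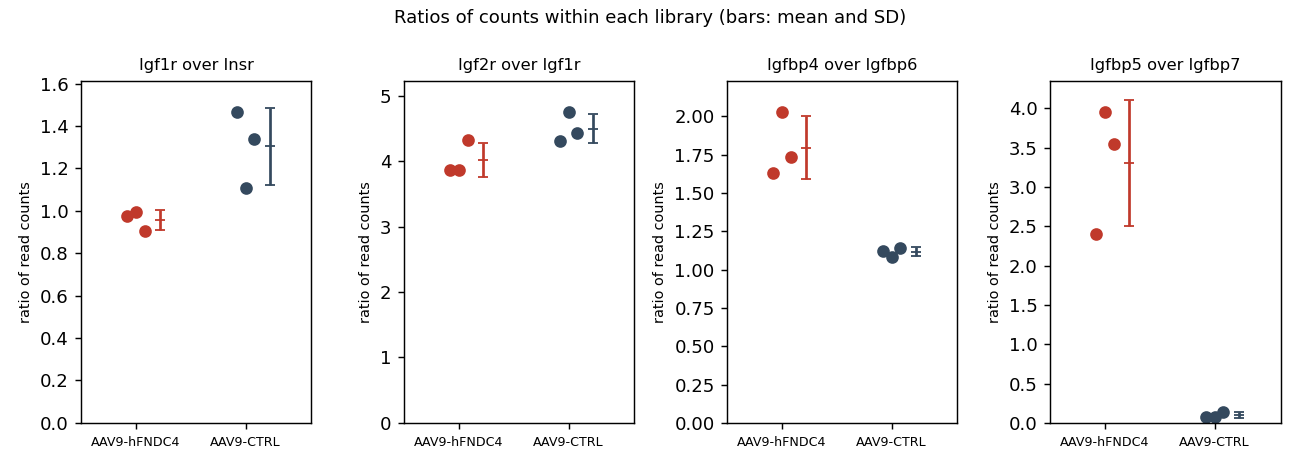
Ratios of read counts within each library (y axes, from 0), 1 point per library, with mean and SD beside the points and AAV9-hFNDC4 left of AAV9-CTRL. Igf2r over Igf1r overlaps between the groups (3.86 to 4.32 in AAV9-hFNDC4 and 4.32 to 4.75 in AAV9-CTRL), while Igf1r over Insr, Igfbp4 over Igfbp6 and Igfbp5 over Igfbp7 do not.

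Of the counts assigned to the 5 measured binding protein genes, not corrected for length, Igfbp4 and Igfbp6 together made up 98.9% to 99.3% in AAV9-hFNDC4 libraries, against 99.4% to 99.5% in AAV9-CTRL libraries. The sum over the 5 genes was 1291 ± 47.5 CPM in AAV9-hFNDC4 libraries and 1355 ± 142 CPM in AAV9-CTRL libraries, and the ranges overlapped.

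Igfbp4 (chromosome 11, 99041244 to 99054392), a binding protein that inhibits IGF action and is cut by the protease PAPP-A, stood at 799, 822 and 839 CPM in AAV9-hFNDC4 libraries, against 626, 741 and 766 CPM in AAV9-CTRL libraries. The groups did not overlap, yet the log2 fold change of 0.21 (SE 0.11) did not pass (edgeR quasi-likelihood test, Benjamini-Hochberg adjusted p = 0.141). It was 0.12 with the length correction and did not pass. It passed with the GC correction, at 0.32 (adjusted p = 0.0212), and over all 15 alternatives the edgeR, DESeq2 and limma adjusted p lay between 0.0212 and 0.343.

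Igfbp6 (chromosome 15, 102144362 to 102149511), which prefers IGF2 over IGF1, stood at 490.0, 405 and 485 CPM in AAV9-hFNDC4 libraries, against 558, 683 and 669 CPM in AAV9-CTRL libraries. All AAV9-hFNDC4 libraries lay lower than all AAV9-CTRL libraries. Igfbp6 was lower: its log2 fold change was -0.47 with an SE of 0.12, and its Benjamini-Hochberg adjusted p was 0.00712 in the edgeR quasi-likelihood test. The length correction ended this call, at -0.09 (SE 0.09, adjusted p = 0.468). The GC correction gave -0.30 and kept it, and over all 15 alternatives the adjusted p lay between 0.000828 and 0.468. With 1112 exon bases, Igfbp6 belongs to decile 1 of tested genes by exon length, the shortest, whose median log2 fold change was -0.49. Within libraries, Igfbp4 had 1.63, 2.03 and 1.73 counts per count of Igfbp6 in AAV9-hFNDC4 libraries, against 1.12, 1.08 and 1.14 in AAV9-CTRL libraries. This ratio is not corrected for length. The log2 fold changes of Igfbp4 and Igfbp6 were 0.21 and -0.47 without the length correction, and 0.12 and -0.09 with it. The part of length in the ratio was not tested.

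Igfbp5 (chromosome 1, 72857932 to 72874884), a binding protein that attaches to extracellular matrix, showed the greatest rise of the measured family genes. It had 257, 399 and 305 counts in AAV9-hFNDC4 libraries, against 14, 17 and 27 counts in AAV9-CTRL libraries. The lowest AAV9-hFNDC4 library, at 6.86 CPM, was far above the highest AAV9-CTRL library, at 0.808 CPM. Igfbp5 was 14.9-fold higher, a log2 fold change of 3.89 with an SE of 0.31, and ranked 4 of 14663 tested genes by log2 fold change (edgeR quasi-likelihood test, Benjamini-Hochberg adjusted p = 1.09e-05). Its log2 fold change was 3.61 to 4.20 over 15 alternatives, all called.

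Igfbp7 (chromosome 5, 77349240 to 77408041), a related secreted protein with low affinity for IGFs, stood at 2.86, 2.80 and 2.34 CPM in AAV9-hFNDC4 libraries, against 5.87, 6.92 and 5.83 CPM in AAV9-CTRL libraries. All AAV9-hFNDC4 libraries lay well below all AAV9-CTRL libraries. Igfbp7 was lower, at -1.22 on the log2 scale (SE 0.22), with a Benjamini-Hochberg adjusted p of 0.000876 in the edgeR quasi-likelihood test. With the length correction it was -0.85 and kept the call. Polr2b on the other strand shares 7.03% of its exon bases. The ratio of Igfbp5 counts over Igfbp7 counts, which is not corrected for their lengths and is read only between groups, was 2.40, 3.95 and 3.55 in AAV9-hFNDC4 libraries, against 0.0690, 0.0783 and 0.138 in AAV9-CTRL libraries.

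Igfbp2 (chromosome 1, 72824503 to 72852474), a binding protein abundant in fetal tissues, was not detected in AAV9-hFNDC4 libraries. It had 0, 0 and 0 counts there, against 11, 10 and 20 counts in AAV9-CTRL libraries, where it stood at 0.412 ± 0.162 CPM. A count of 0 over the 3 AAV9-hFNDC4 libraries allows a level of up to 0.0272 CPM (3 counts over the group). Set against the 41 counts summed over the AAV9-CTRL libraries, and scaled to the summed library sizes, this ceiling lay 15.2-fold lower. That fold takes the 41 counts as exact, so it covers only the counting error of the 0 counts. The edgeR quasi-likelihood test called Igfbp2 lower at a Benjamini-Hochberg adjusted p of 0.00171. The level in AAV9-CTRL libraries was itself under 1 CPM, and Igfbp2 passed the low-count filter through that group alone; the part of the number of genes detected per library in this result was not tested. Igfbp2 and its neighbour Igfbp5 thus differed in opposite directions.

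**Figure D3:**
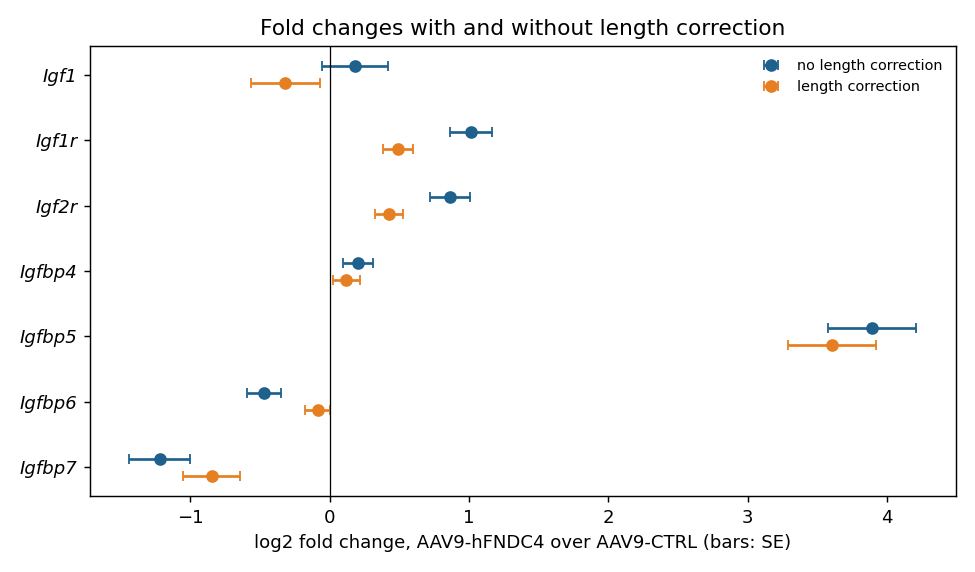
Log2 fold change of 7 IGF family genes, AAV9-hFNDC4 over AAV9-CTRL (x axis; bars are SE), with the uncorrected value drawn above the length-corrected one. Igf1r is at 1.02 and 0.49 and Igf2r at 0.86 and 0.43, Igfbp6 goes to -0.09, Igf1 turns from above to below 0, and Igfbp5 stays at 3.61. Igf2 and Igfbp2, with 2 and 0 counts over the AAV9-hFNDC4 libraries, are not drawn.

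Transcript length moved with the fold changes across all genes, so it is set beside the family. The median log2 fold change was -0.49 in decile 1 of tested genes by exon length, the shortest, and 0.46 in decile 10, the longest. Igf1r, Igf2r and Igf1 belong to decile 10, of which 52.5% were called higher. Igf1r and Igf2r lay above the median of that decile and Igf1 below it. Igfbp7 and Igfbp2 belong to decile 2, with a median of -0.34, and both lay below it. Igfbp5 is in decile 9, with a median of 0.27. The part of length in each result was not tested beyond the correction given with each gene.

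**Figure D4:**
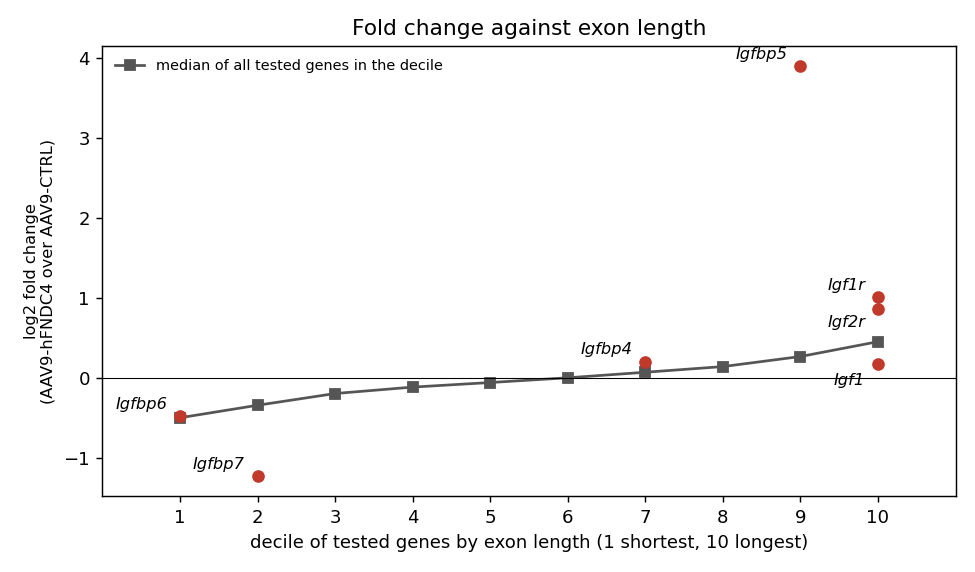
Log2 fold change, AAV9-hFNDC4 over AAV9-CTRL (y axis), against the decile of tested genes by exon length (x axis, shortest to longest). Grey squares are medians over all tested genes and run from -0.49 to 0.46. Red points are 7 IGF family genes, of which Igfbp6 lies on the trend and Igfbp5 lies farthest from it.

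To order the genes by level, CPM was divided by exon length in kilobases. On this scale Igfbp6 was the most abundant in both groups, at 414 ± 42.8 in AAV9-hFNDC4 libraries and 573 ± 61.6 in AAV9-CTRL libraries. Igfbp4 followed at 209 ± 5.20 in AAV9-hFNDC4 libraries and 181 ± 18.95 in AAV9-CTRL libraries, then Igf2r at 53.8 ± 4.13 in AAV9-hFNDC4 libraries and 29.6 ± 6.21 in AAV9-CTRL libraries. Igf1r stood at 10.4 ± 0.152 in AAV9-hFNDC4 libraries and 5.15 ± 1.28 in AAV9-CTRL libraries. Next came Igfbp7 at 2.20 ± 0.237 in AAV9-hFNDC4 libraries and 5.13 ± 0.508 in AAV9-CTRL libraries. In AAV9-hFNDC4 libraries Igfbp5 followed at 1.45 ± 0.355 and Igf1 at 0.399 ± 0.0616, with no overlap between neighbours down to Igf1. In AAV9-CTRL libraries Igf1 followed at 0.352 ± 0.0356, Igfbp2 at 0.282 ± 0.111, Igf2 at 0.104 ± 0.0472 and Igfbp5 at 0.0974 ± 0.0341. There, Igf1r and Igfbp7 overlapped, as did Igf1 and Igfbp2, and Igf2 and Igfbp5. Igf1 and Igf2 lay below Igf1r, Igf2r, Igfbp4, Igfbp6 and Igfbp7 in both groups. Insr stood at 13.3 ± 0.806 per kilobase in AAV9-hFNDC4 libraries and 4.79 ± 0.706 in AAV9-CTRL libraries.

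Genes whose levels were most like those of a member were sought over the 6 libraries by Pearson correlation of log2 CPM, among genes of at least 10 CPM. For Igfbp5 these were Socs2 (r = 0.997), an inhibitor of growth hormone signalling, Mmut (r = 0.995), a mitochondrial mutase, and Lpl (r = 0.995), lipoprotein lipase. For Igfbp4 they were Pccb (r = 0.989), Suclg2 (r = 0.987) and Eif4e3 (r = 0.983). The 6 points share the division into 2 groups, and 426 of 9492 genes exceeded 0.95 with Igfbp5 against 12 of 9491 with Igfbp4, so these values are descriptions.

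Other genes of the pathway were taken from lists by role, and each count is to be set beside the 22.1% of all tested genes called higher, the 25.0% called lower and the median of 0.01. The growth hormone axis, which induces Igf1 in liver, had 4 of 6 tested genes higher and 0 lower, with a median log2 fold change of 0.63. With the length correction 3 of 6 were higher, and so were 3 of 6 without AAV9-hFNDC4 replicate 1, AAV9-hFNDC4 replicate 3 or AAV9-CTRL replicate 3, while 6 of 6 were higher with the GC correction or without AAV9-hFNDC4 replicate 2. Socs2 was higher by 1.25 (SE 0.15), at 21.4, 26.5 and 23.8 CPM in AAV9-hFNDC4 libraries, against 8.79, 10.5 and 10.9 CPM in AAV9-CTRL libraries. Ghr, the growth hormone receptor, was higher by 0.86 (SE 0.11), Jak2, its kinase, by 0.76 (SE 0.12) and Stat5b by 0.32 (SE 0.10), all with adjusted p of 0.019 or less (edgeR quasi-likelihood test, Benjamini-Hochberg). Stat5b lost its call when AAV9-hFNDC4 replicate 1 (0.31), AAV9-hFNDC4 replicate 3 (0.31) or AAV9-CTRL replicate 3 (0.29) was left out. It also lost its call with a replicate block (0.32) and at 0.07 under the length correction. Stat5a (0.26, SE 0.12) and Cish (0.51, SE 0.25) did not pass.

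Below the receptors, genes of the IRS, PI3-kinase, AKT and mTOR pathway went both ways. Of 28 tested genes, 9 were higher, 7 were lower and 12 did not pass, with a median log2 fold change of 0.18. With the length correction 5 were higher and 8 lower, and the median was -0.15. Without AAV9-CTRL replicate 3, 5 were higher and 6 lower. Pik3r1, the regulatory subunit of PI3-kinase, was higher at 100.4 ± 7.06 CPM in AAV9-hFNDC4 libraries and 44.4 ± 5.46 CPM in AAV9-CTRL libraries, a log2 fold change of 1.18 (SE 0.12). Gsk3b, a kinase that AKT inhibits, was higher by 1.20 (SE 0.16), and Sos1, an exchange factor for RAS, by 0.93 (SE 0.12). Akt1, the kinase downstream of PI3-kinase, was lower at 156 ± 3.27 CPM in AAV9-hFNDC4 libraries and 232 ± 11.3 CPM in AAV9-CTRL libraries, a log2 fold change of -0.57 (SE 0.09). These 4 genes kept their calls and directions in all 15 alternatives. The length correction brought Pik3r1 to 0.80, Gsk3b to 0.78, Sos1 to 0.50 and Akt1 to -0.51. The receptor substrate genes, singled out after their values were seen, gave 0.38 (SE 0.13) for Irs2, called higher, and 0.07 (SE 0.18) for Irs1, which did not pass. Irs2 lost its call without AAV9-hFNDC4 replicate 1 (0.34), AAV9-hFNDC4 replicate 3 (0.30) or AAV9-CTRL replicate 3 (0.30). It also lost its call with a replicate block (0.38) and at 0.08 under the length correction. The difference between Irs1 and Irs2 was not tested.

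Genes that FOXO factors, which AKT holds out of the nucleus, are known to induce had 9 of 14 tested members higher and 1 lower, beside 22.1% higher and 25.0% lower over all tested genes, and a median log2 fold change of 0.42. With the length correction 6 of 14 were higher and 1 lower, and without AAV9-CTRL replicate 3 the counts were 5 and 1. Insr and Irs2 also belong to this list. Klf15 was higher at 73.7 ± 0.884 CPM in AAV9-hFNDC4 libraries and 31.0 ± 2.17 CPM in AAV9-CTRL libraries, a log2 fold change of 1.25 (SE 0.11). Pik3ip1, an inhibitor of PI3-kinase, was higher by 1.42 (SE 0.17). Pdk4, which restrains glucose oxidation, was lower with -1.11 (SE 0.13). RNA levels do not measure the activity of AKT or FOXO proteins.

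**Figure D5:**
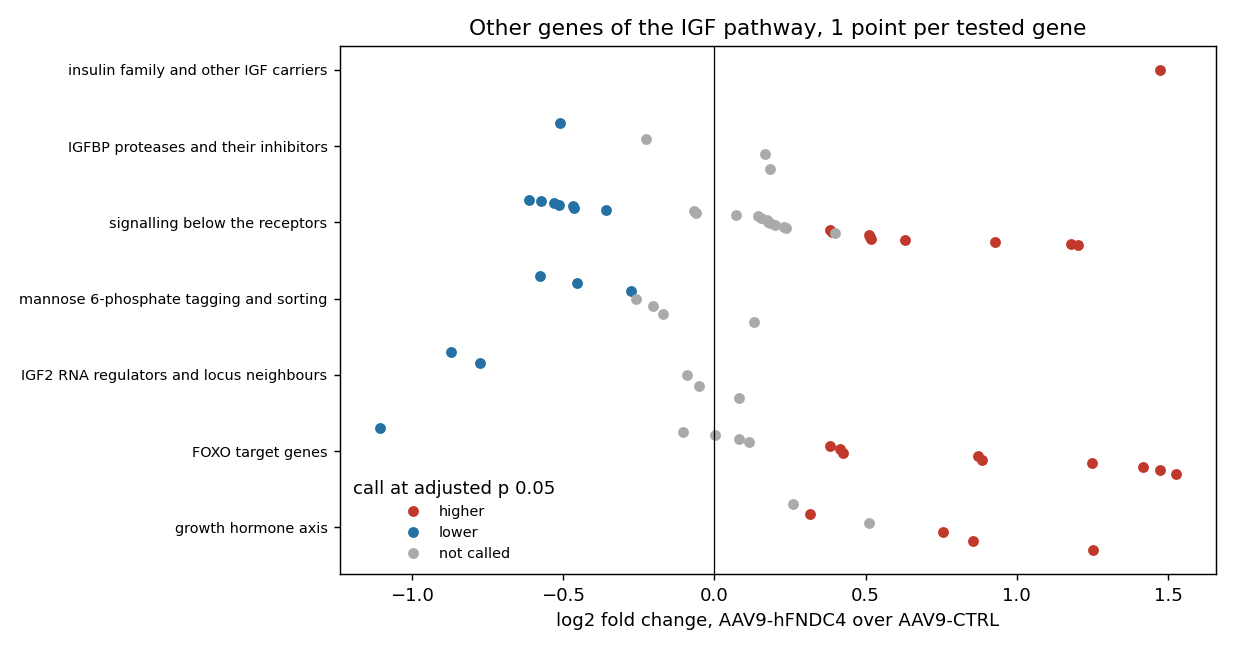
Log2 fold change, AAV9-hFNDC4 over AAV9-CTRL (x axis), of the other tested genes of the IGF pathway by list (y axis), 1 point per gene, coloured by call. The growth hormone and FOXO lists lie mostly to the right (4 of 6 and 9 of 14 genes higher), and the mannose 6-phosphate list mostly to the left.

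Genes that tag or sort lysosomal enzymes by mannose 6-phosphate, the second function of IGF2R, were lower in 3 of 7 tested genes and higher in 0, with a median of -0.26. M6pr, the smaller mannose 6-phosphate receptor, was lower at 139 ± 8.74 CPM in AAV9-hFNDC4 libraries and 190.2 ± 22.0 CPM in AAV9-CTRL libraries, a log2 fold change of -0.46 (SE 0.11), while Igf2r was higher. Nagpa, which uncovers the tag, was lower with -0.58 (SE 0.17) and Gga1, a sorting adaptor, with -0.27 (SE 0.10), a call kept in 6 of 15 alternatives and lost when any library except AAV9-CTRL replicate 2 was left out (-0.31 to -0.23) or GC content was corrected for (-0.09). Without AAV9-hFNDC4 replicate 3, AAV9-CTRL replicate 1 or AAV9-CTRL replicate 3, 1 gene was called, with Nagpa at -0.53 to -0.51, and with the length correction 5 were. Gga3 (-0.26, SE 0.12) did not pass.

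Proteases that cut IGF binding proteins were few among the tested genes. Ctsd, the lysosomal protease cathepsin D, was lower at 386 ± 4.97 CPM in AAV9-hFNDC4 libraries and 549 ± 8.17 CPM in AAV9-CTRL libraries, a log2 fold change of -0.51 (SE 0.09). Adam9 (0.18, SE 0.10), Htra1 (0.17, SE 0.10) and Htra3 (-0.23, SE 0.18) did not pass, and Htra1 passed at 0.32 with the length correction. Pappa, which cuts IGFBP4, lay under the filter with 6, 14 and 9 counts in AAV9-hFNDC4 libraries, against 2, 0 and 1 counts in AAV9-CTRL libraries.

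RNA-binding proteins and regulators of Igf2 had 2 of 5 tested genes lower and 0 higher. Igf2bp1, which binds Igf2 RNA, was lower at 24.6 ± 2.96 CPM in AAV9-hFNDC4 libraries and 42.0 ± 5.97 CPM in AAV9-CTRL libraries, a log2 fold change of -0.77 (SE 0.14), and of -1.19 with the length correction. Hmga2, a chromatin protein that promotes Igf2bp2 expression, was lower with -0.87 (SE 0.18), a call kept in all 15 alternatives, as was that of Igf2bp1. Igf2bp2 (-0.09, SE 0.12), Igf2bp3 (-0.05, SE 0.11) and Lin28b (0.08, SE 0.38) did not pass. Of other carriers, Igfals, which forms the ternary complex of circulating IGF, had 0 counts in AAV9-hFNDC4 libraries, against 6, 8 and 0 counts in AAV9-CTRL libraries, and Igfbp1 had 1 count in all 6 libraries together.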

How the data were processed

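The authors deposited raw read counts per gene symbol, 1 column per library and no normalization. Processing with fastp, HISAT2, HTSeq, R 3.2.0 and DESeq2 on GRCm38 (mm10) is named per the submitters' processing notes, and libraries were made from TRIzol RNA with a VAHTS kit per the labels' protocols. Annotation release, strand setting and handling of shared reads: not given in the sources used here.

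Counts were compared in R 4.3.3 with edgeR 4.0.16: filterByExpr (14663 of 27482 symbols kept), TMM, robust dispersions, quasi-likelihood F test, Benjamini-Hochberg adjustment over all tested genes and a threshold of 0.05. The SE is the size of the log2 fold change over the square root of F. Fold bounds use a floor of 3 counts over a group. Floors cover only the counting error of the group with 0 counts, and intervals cover counting error only. Positions, exon lengths (union of exons) and overlaps are those of GENCODE vM21 basic on GRCm38. Of tested genes, 91.3% had a length. Tests were tried on simulated counts with few genes changed and no length trend, unlike these data, so nothing is read from that trial.

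The members, gene lists and alternatives were chosen with earlier results of these data known. Named were all members, up to 4 genes per list with the smallest p, and 3 genes most like the member of highest mean CPM and the member with the smallest p. The remaining tested genes of the growth hormone list and of the Igf2 regulators were named as well. So were Pappa, Igfals and Igfbp1, which lay under the low-count filter. Airn, Igf1os, Irs1, Irs2 and the promoter motifs were picked with their values or windows in view. Alternatives were RLE or upper-quartile scaling, no filter, a filter of 1 CPM in 3 libraries, DESeq2 1.42.0, limma-voom (limma 3.58.1), a replicate block, corrections for length and GC content (loess per library, span 0.4) and leaving out each library. List genes without a row in the table were not analysed here.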

Additional observations from a re-analysis of the deposited data

How the results depend on the processing

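Igf1r, Igf2r, Igfbp5 and Igfbp7 kept direction and call in all 15 alternatives. Igfbp2 was called lower in the 14 in which it was tested, all but the 1 CPM filter. Its direction was fixed, since it passed the filter through AAV9-CTRL libraries alone, so its calls add no support. Log2 fold changes ranged from 0.49 to 1.27 for Igf1r, 0.43 to 1.08 for Igf2r and -1.27 to -0.85 for Igfbp7. Igfbp6 lost its call with the length correction (-0.087), Igfbp4 gained one with the GC correction (0.32), and Igf1 turned to -0.32 with the length and -0.10 with the GC correction. The length trend and the GC trend are removed by construction; no other cause was tested. The members called numbered 3 higher in each alternative other than the GC correction, with 4, and 2 to 4 lower, the count of 4 including Igf2 where it passed the filter.

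Called list genes numbered 2 in place of 1 among insulin family and carrier genes without the low-count filter, and 2 in place of 1 among binding protein proteases with upper-quartile scaling, the length or the GC correction. Mannose 6-phosphate genes numbered 5 with the length and 1 with the GC correction in place of 3, and 1 to 3 with a library left out. FOXO targets numbered 6 to 10 with a library left out. The cause was not tested.

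Same-numbered libraries did not vary together (correlations of deviations -0.08, -0.18 and -0.05). With 3 libraries per group, centred on their group means, these values cannot decide whether the replicate number pairs libraries. With the replicate number as a block, 2663 genes were higher and 3080 lower, and no member changed its call. Some list genes lost their calls, Irs2 and Stat5b among them. Without the low-count filter the median log2 fold change of all genes was -0.15. Igf2, Igfbp2 and Igf1 rest on few counts, which limits their precision. The fold change of Igfbp5 is limited likewise by its 58 counts summed over AAV9-CTRL libraries.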
